A study of Mus musculus with 4 samples.

Results

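The olfactory receptor genes, named Olfr in the mouse, were examined for Bmal1 occupancy in the postnatal retina. A gene was taken where its name was Olfr followed by a digit and a narrow Bmal1 peak was annotated to its transcription start site (TSS), the nearest one to the peak. There were 193 such genes of 7005 genes named in the narrow peak lists, and they carried 245 of 16134 peaks. Bmal1 chromatin immunoprecipitation sequencing was performed on whole retina of wild-type mice at postnatal day 3 (P3) and day 5 (P5), collected at zeitgeber time 4, and no treatment or induced allele was named. The libraries were P3 replicates 4 and 5 and P5 replicates 2 and 3, and the authors also called peaks on the pooled libraries of each age. Whole retina averages over all its cell types, and the labels do not say whether the 2 libraries of an age came from separate animals, so p-values describe only the spread between libraries.

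Olfactory receptors are G protein-coupled receptors that detect odorants. They form the largest gene family of the mouse genome, and most lie in long tandem clusters. Each olfactory sensory neuron of the nose expresses a single receptor from a single allele, while the other receptor genes are kept silent. Bmal1 is the activator of the circadian clock that pairs with Clock and binds E-boxes, of which CACGTG is the canonical form. A peak marks where immunoprecipitated fragments piled up, and says nothing of whether the nearest gene is transcribed.

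The sequences of 8 peaks are shown because the number of libraries holding a place and the presence of the E-box were the main comparisons. They comprise the highest-scoring Olfr peak of the P3 libraries and of both pooled lists, the peak closest to an Olfr TSS, a promoter peak at P5, and the pair of peaks near Olfr994, the gene whose peaks in 2 libraries lay closest together. The last 4 were chosen after their values were seen. All are the plus strand of GRCm38 (mm10), and capitals mark a match to the flexible E-box, which is CACGTG in which position 3 may also be T and position 4 may also be T (positions from the motif's 5′ end), searched on both strands.
Olfr161, P3 replicate 4, chr16:3237067-3237211: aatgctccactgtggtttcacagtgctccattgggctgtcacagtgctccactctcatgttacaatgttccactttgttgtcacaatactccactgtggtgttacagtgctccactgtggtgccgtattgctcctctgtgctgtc
Olfr161, P3 replicate 5, chr16:3337708-3337878: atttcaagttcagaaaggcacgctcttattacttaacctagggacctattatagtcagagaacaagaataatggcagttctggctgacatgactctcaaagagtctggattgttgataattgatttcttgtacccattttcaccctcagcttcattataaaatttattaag
Olfr987, P3 pooled, chr2:85277386-85277550: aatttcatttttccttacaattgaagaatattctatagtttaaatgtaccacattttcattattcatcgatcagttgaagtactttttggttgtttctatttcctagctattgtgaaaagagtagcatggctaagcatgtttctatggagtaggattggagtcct
Olfr1402, P5 pooled, chr3:97404431-97404569: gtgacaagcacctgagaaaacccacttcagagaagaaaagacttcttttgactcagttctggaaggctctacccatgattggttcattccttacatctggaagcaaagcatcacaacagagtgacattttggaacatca
Olfr837, P3 replicate 4, chr9:19136759-19136903: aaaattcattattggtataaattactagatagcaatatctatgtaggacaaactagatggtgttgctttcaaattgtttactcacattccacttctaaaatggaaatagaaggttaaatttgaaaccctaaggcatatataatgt
Olfr1037, P5 replicate 3, chr2:86086449-86086619: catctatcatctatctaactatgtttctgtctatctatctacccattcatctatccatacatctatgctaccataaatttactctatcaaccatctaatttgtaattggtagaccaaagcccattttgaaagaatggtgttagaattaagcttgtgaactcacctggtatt
Olfr994, P3 replicate 4, chr2:85432814-85432958: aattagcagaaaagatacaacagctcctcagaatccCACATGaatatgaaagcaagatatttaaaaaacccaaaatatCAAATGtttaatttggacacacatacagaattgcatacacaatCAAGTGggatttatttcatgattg
Olfr994, P3 replicate 5, chr2:85434589-85434759: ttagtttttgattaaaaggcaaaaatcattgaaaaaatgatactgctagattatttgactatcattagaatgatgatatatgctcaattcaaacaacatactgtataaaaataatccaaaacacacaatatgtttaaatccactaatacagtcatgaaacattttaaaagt

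Only the first Olfr994 peak of these held a flexible E-box, with 3 matches, and none held CACGTG. The Olfr987 sequence lies in a LINE of the L1 family, as do both Olfr994 peaks. The Olfr1402 peak lies in an LTR element of the ERVL-MaLR family, and the Olfr161 peak of P3 replicate 5 in one of the ERVK family.

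The number of Olfr genes with a narrow peak differed widely between libraries of the same age. P3 replicate 4 had a peak near 99 Olfr genes, P3 replicate 5 near 17, P5 replicate 2 near 0 and P5 replicate 3 near 22. The pooled list of P3 had 76 and that of P5 had 14. The 2 ages therefore overlapped, with P5 replicate 3 above P3 replicate 5. The lists differed in length in the same order, from 200 peaks in P5 replicate 2 through 944 in P3 replicate 5 and 1336 in P5 replicate 3 to 9543 in P3 replicate 4. The pooled lists held 3625 peaks at P3 and 486 at P5.

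The share of Olfr genes with a peak was set beside that of genes at large. Its value was the lower in each of the 6 narrow lists, by little in the P5 pooled list. The broad lists, given at the end, did not all go this way. RefSeq has 1125 Olfr genes with a curated transcript on the reference chromosomes, and all 193 were among them. In P3 replicate 4, 8.80% of the 1125 genes had a peak, against 20.3% of the 26180 curated genes of all kinds. The same shares were 1.51% against 3.17% in P3 replicate 5, 0% against 0.745% in P5 replicate 2 and 1.96% against 4.37% in P5 replicate 3. They were 6.76% against 9.86% in the P3 pooled list and 1.24% against 1.74% in the P5 pooled list. These shares were not tested. The starts of neighbouring curated Olfr genes within 1 Mb lay a median of 20.5 kb apart, and those of other curated genes 38.2 kb, and the part of this spacing in the shares was not tested either.

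Counted over peaks, the Olfr share was 1.17% in P3 replicate 4 (95% Clopper-Pearson interval 0.967 to 1.41), 1.91% in P3 replicate 5 (1.13 to 3.00) and 1.65% in P5 replicate 3 (1.03 to 2.48). P5 replicate 2 had 0 Olfr peaks of 200, for which the interval reaches 1.83%, and 3 peaks, the limit taken for a count of 0, would be 1.5%. The intervals cover counting error only. Olfr genes made up 4.30% of the curated genes, above all 4 of these shares. The P3 libraries averaged 1.54% ± 0.518 (SD, n = 2) and the P5 libraries 0.823% ± 1.16 (SD, n = 2). The difference of 0.717 percentage points was within the spread of the libraries (exact two-sided permutation test over 4 libraries, p = 0.667, where 0.333 is the smallest p possible). Without P5 replicate 2, the library with the fewest peaks, it turned to -0.106. The pooled lists had larger shares than any of their own libraries, 2.15% at P3 (1.70 to 2.68) and 3.09% at P5 (1.74 to 5.04).

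**Figure D1:**
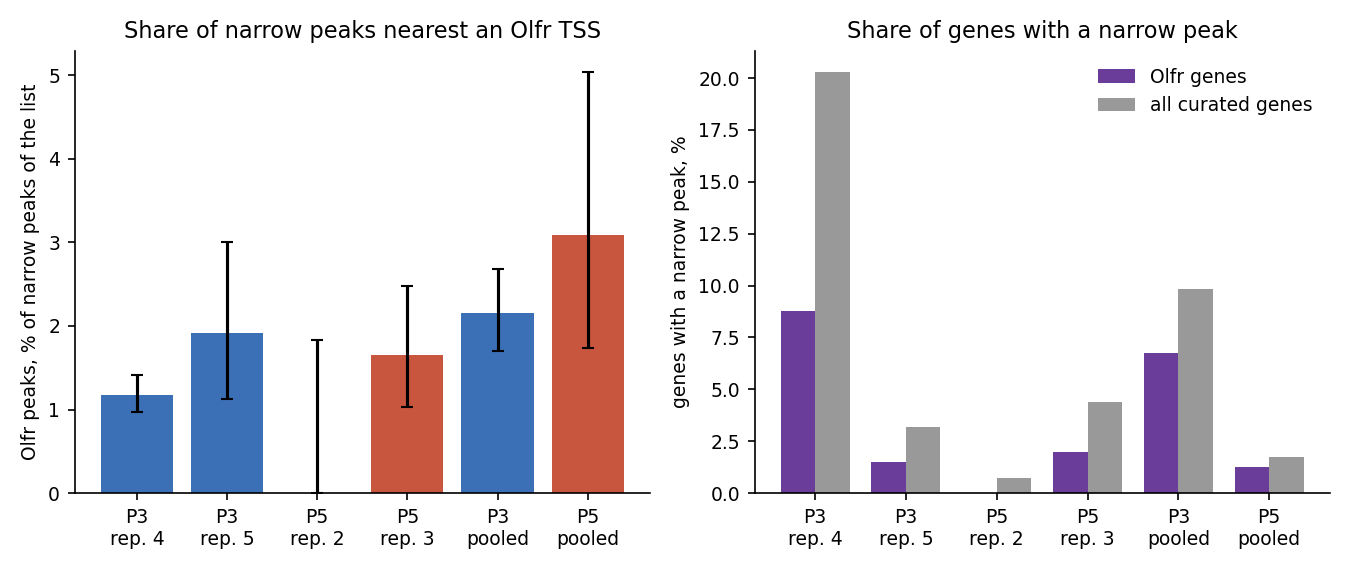
Left, Olfr peaks as a percentage of all narrow peaks of each list, with 95% Clopper-Pearson intervals (P3 in blue, P5 in red). Right, the percentage of 1125 Olfr genes (purple) and of 26180 curated genes (grey) with a narrow peak. The Olfr bar is the lower of each pair, and P5 replicate 2 has none.

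Density was then measured along the chromosome, where the length of the clusters, not the number of genes, sets what is expected. Olfr genes whose neighbours start within 1 Mb formed 43 clusters and 21 single genes, which span 35.3 Mb or 1.33% of the genome. The clusters had a GC content of 39.5% against 41.7% for the genome, and 45.6% of their bases were repeat-masked against 36.4%. P3 replicate 4 had 120 peaks inside the clusters, where their length predicted 127, a ratio of 0.943 (95% Poisson interval 0.782 to 1.13). P3 replicate 5 had 14 where 12.6 were predicted, a ratio of 1.11 (0.608 to 1.87). P5 replicate 2 had 1 where 2.67 were predicted, a ratio of 0.375 (0.00949 to 2.09). P5 replicate 3 had 25 where 17.8 were predicted, a ratio of 1.40 (0.908 to 2.07). All 4 intervals include a ratio of 1, and the mean log2 ratio of -0.14 ± 0.67 (SD, n = 4) was not distinguishable from 0 (exact two-sided sign-flip permutation test, p = 0.875, smallest possible 0.125).

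Peaks called on the pooled libraries were denser inside the clusters than the genome average. The P3 pooled list had 83 peaks inside clusters where 48.4 were predicted, a ratio of 1.72 (1.37 to 2.13), and the P5 pooled list had 18 where 6.48 were predicted, a ratio of 2.78 (1.65 to 4.39). Each pooled ratio was above those of both of its own libraries. With 1 list per age there is no replicate of this measurement. In the broad peak lists, which the authors called on the same libraries, the ratio was 1.37, 1.79, 1.34 and 1.52 in P3 replicates 4 and 5 and P5 replicates 2 and 3, all above 1. The mean log2 ratio there was 0.58 (exact two-sided sign-flip permutation test over the 4 libraries, p = 0.125, the smallest possible). The density in the clusters thus depended on the kind of peak call, and what made it differ was not tested.

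**Figure D2:**
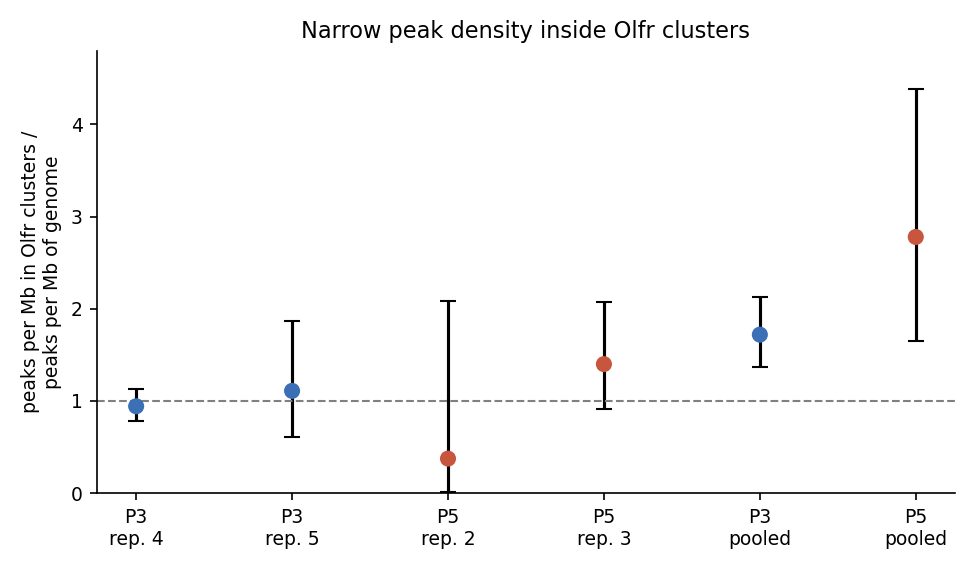
Narrow peaks per Mb inside Olfr clusters divided by peaks per Mb of the genome, with 95% Poisson intervals (counting error only), for each list. The dashed line marks a ratio of 1. The intervals of the 4 single libraries cross it and those of the pooled lists, 1.72 and 2.78, lie above it.

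Peaks near Olfr genes were spread over many clusters. Of the 43 clusters, 33 had an Olfr peak in at least 1 list, as did 4 of the 21 single genes. The 17 clusters of at least 20 genes held 1229 of the 1427 annotated Olfr genes and 159 of the 193 with a peak. The largest, Olfr987 to Olfr1274 on chromosome 2 with 293 genes, had 16 peaks in P3 replicate 4, 4 in P3 replicate 5, 0 in P5 replicate 2, 2 in P5 replicate 3, 15 in the P3 pooled list and 2 in the P5 pooled list. Of its 226 curated genes, 35 (15.5%) had a peak in some list, against 17.2% for all curated Olfr genes.

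The chromosome 7 cluster Olfr543 to Olfr692, which surrounds the beta-globin genes, had 11, 4, 0 and 1 peaks in the 4 libraries in the same order, and 6 and 1 in the pooled lists. The chromosome 9 cluster Olfr160 to Olfr986 had 17, 0, 0 and 3 peaks, with 5 and 2 in the pooled lists, and was the most populated cluster of P3 replicate 4. The second cluster of chromosome 9, Olfr24 to Olfr18, had 8, 3, 0 and 1, and 11 of its 37 curated genes (29.7%) had a peak, the highest share among the 17. The chromosome 19 cluster Olfr1417 to Olfr1505 had 7, 0, 0 and 1, with 5 and 0 in the pooled lists. The lowest shares were those of Olfr1275 to Olfr1319-ps1 on chromosome 2, with 3 of 38 curated genes (7.89%), Olfr30 to Olfr225 on chromosome 11, with 2 of 24 (8.33%), and Olfr522 to Olfr542-ps1 on chromosome 7, with 0 of 19.

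The other large clusters lay between these. The share of curated genes with a peak was 17.7% for Olfr1417 to Olfr1505, 13.2% for Olfr693 to Olfr519 on chromosome 7, 12.1% for Olfr9 to Olfr827 on chromosome 10 and 15.2% for Olfr90 to Olfr136 on chromosome 17. It was 22.6% for Olfr20 to Olfr412 on chromosome 11, 21.4% for Olfr334-ps1 to Olfr368 on chromosome 2, 19.4% for Olfr722 to Olfr1507 on chromosome 14 and 18.5% for Olfr172 to Olfr209 on chromosome 16. It was 28.6% for Olfr459 to Olfr47 on chromosome 6 and 4 of 20 genes for Olfr16 to Olfr220 on chromosome 1. These shares come mostly from P3 replicate 4 and the P3 pooled list, which hold the most peaks.

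**Figure D3:**
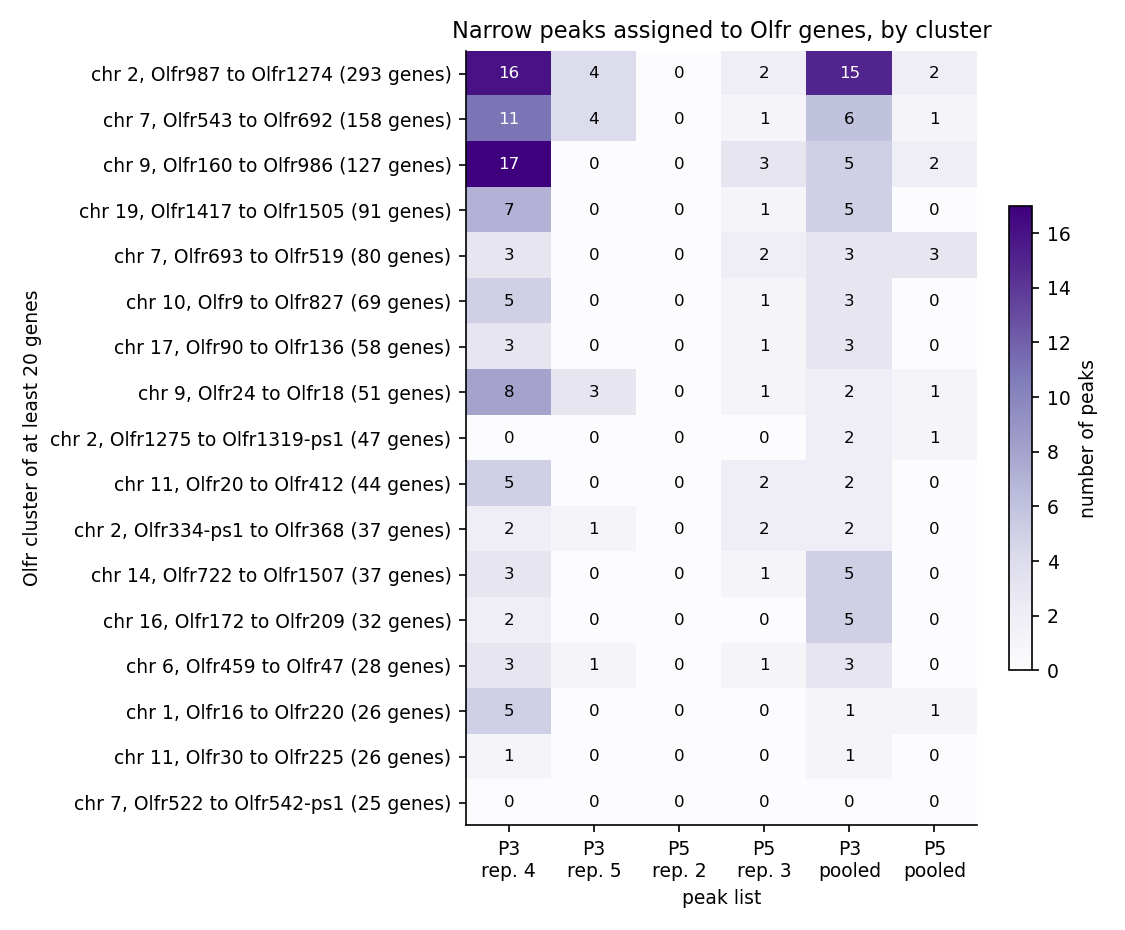
Number of narrow peaks annotated to Olfr genes in each list (columns) for the 17 clusters of at least 20 genes (rows, named by chromosome and first and last gene, largest at the top). Counts are written in the cells. P3 replicate 4 and the P3 pooled list fill most rows, and the column of P5 replicate 2 is 0 throughout.

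No place near an Olfr gene was called in more than 1 library. Of 131 Olfr genes with a peak in a single library list, 7 had one in 2 libraries, a count that was not made for genes at large. In none of the 7 did the peaks overlap or have centers within 1 kb. In the same comparison, 17 of the 9431 other peaks of P3 replicate 4 (0.180%) met a peak of P3 replicate 5 and 3 of the 200 peaks of P5 replicate 2 (1.5%) met one of P5 replicate 3, so overlap between libraries was rare at any gene. For 112 Olfr peaks, 0 overlaps is within what so low a share allows.

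The closest pair lay near Olfr994 on chromosome 2. Its peak in P3 replicate 4 was 2.06 kb upstream of the TSS with a score of 3.81, and that in P3 replicate 5 was 3.85 kb upstream with a score of 3.20. The score is the number of tags in the peak per 10 M tags, and both peaks held 21 tags. The centers were 1.79 kb apart, both in an element annotated L1MD3. The pair near Olfr1362 on chromosome 13 was 6.79 kb apart, with the P3 replicate 4 peak in the promoter, 475 bp upstream, and the P3 replicate 5 peak 7.27 kb upstream.

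The other 5 pairs were further apart. The centers were 24.2 kb apart near Olfr24 and 49.5 kb apart near Olfr291, both in the P3 libraries. Olfr161, on chromosome 16, had the highest-scoring Olfr peak of both P3 libraries, 5.26 (29 tags) in replicate 4 and 4.26 (28 tags) in replicate 5, yet these lay 355 kb and 255 kb upstream of its TSS. A further peak of replicate 5 was 65.2 kb upstream. The remaining pairs joined P3 replicate 4 and P5 replicate 3, with centers 18.4 kb apart near Olfr31 and 67.7 kb apart near Olfr412.

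Pooling changed which places were called. Of the 78 Olfr peaks of the P3 pooled list, P3 replicate 4 shared 15 (19.2%) and P3 replicate 5 shared 0 by overlap, so 63 (80.8%) were in neither library's own list. For the other peaks of that list 2567 of 3547 (72.4%) were in neither. Of the 15 Olfr peaks of the P5 pooled list, 3 overlapped P5 replicate 3 and 0 P5 replicate 2, and 24.8% of the other peaks of that list overlapped one of its libraries. Pooled and single lists share their tags, so an overlap is not a repeat of the measurement. Counted by gene, 104 of the 193 had a peak only in single libraries, 62 only in a pooled list and 27 in both. The same split was not made for all genes, so these counts are not a result about Olfr genes.

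Olfr1402, a gene on chromosome 3 with no Olfr neighbour within 1 Mb, was the only member in both pooled lists. Its P5 pooled peak had the highest score of the Olfr peaks in that list, 2.84 (37 tags), 6.68 kb downstream of the TSS, and P5 replicate 3 had a peak at the same place with a score of 3.37 (23 tags). The P3 pooled peak was elsewhere, 38.3 kb upstream with a score of 2.48 (30 tags), in a LINE, and did not overlap it. The sequence printed above for the P5 peak has no E-box of either form.

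The median score of Olfr peaks equalled that of the other peaks in the single libraries and was below it in the pooled lists. In P3 replicate 4 they ran from 2.54 to 5.26 with a median of 3.63, equal to the median of 3.63 for the other peaks, and 123 of the 9543 peaks scored above the highest Olfr peak. In P3 replicate 5 they ran from 2.89 to 4.26 with medians of 3.35 for both kinds of peak, and in P5 replicate 3 from 2.93 to 3.66 with medians of 3.22. In the pooled lists the Olfr medians were 2.48 against 2.56 at P3 and 2.15 against 2.23 at P5. An Olfr peak thus held a median of 20 to 30 tags, and at most 40, while the other peaks reached 88 tags in the P3 pooled list. Among peaks above the median score of the pooled lists there were 19 Olfr genes for P3 and 4 for P5, and the Olfr share of those peaks was 1.18% and 1.96%, against 2.15% and 3.09% of all peaks.

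The highest-scoring Olfr peaks of the P3 pooled list lay between genes and mostly in LINEs. Olfr987 (3.31, 40 tags), Olfr459 (3.14, 38 tags), Olfr788 (3.06, 37 tags), Olfr183 (2.98, 36 tags) and Olfr881 (2.98, 36 tags) led the list. All but that of Olfr459 were in L1 elements and overlapped a peak of P3 replicate 4, where their scores were 3.63, 4.17, 4.17 and 4.53 for Olfr987, Olfr788, Olfr183 and Olfr881. At P5 the pooled list was led by Olfr1402, then Olfr1408 (2.69, 35 tags), Olfr985 (2.46, 32 tags) and the pseudogene Olfr947-ps1 (2.30, 30 tags). Olfr1113, Olfr1294 and Olfr285 followed with an equal score of 2.23 (29 tags).

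Single libraries were led by other genes. After Olfr161, P3 replicate 4 had Olfr419, Olfr77, Olfr972 and Olfr727 at an equal score of 4.71 (26 tags), of which Olfr419, Olfr77 and Olfr727 had the peak in an L1 element. Olfr972 had 3 peaks within 4.11 kb upstream of its TSS in that library. P3 replicate 5 had Olfr362 and Olfr868 at 3.8 (25 tags), Olfr1213 at 3.65 (24 tags) in its first intron, and Olfr1225, Olfr1362, Olfr547 and Olfr638 at 3.50 (23 tags). P5 replicate 3 had Olfr155 at 3.66 (25 tags), then Olfr710, Olfr497 and Olfr110 at 3.52 (24 tags) and Olfr1037, Olfr1402, Olfr31 and Olfr947-ps1 at 3.37 (23 tags). In none of the single lists did the first Olfr peak stand apart from the next by more than 3 tags.

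Promoter peaks were a minority of Olfr peaks but a larger share than among the other peaks in 4 of the 5 lists, a difference that was not tested. In the P3 pooled list 4 of 78 Olfr peaks (5.13%, against 0.648% of the others) were annotated to a promoter, those of Olfr1507, Olfr470, Olfr214 and Olfr617, 623, 848, 876 and 966 bp upstream of the TSS with scores of 2.48, 2.40, 2.48 and 2.32. Olfr1507, also called MOR28, stands beside the H element, an enhancer of receptor genes. Only that of Olfr214 overlapped a promoter peak of a single library, P3 replicate 4, which scored 4.17 and was 858 bp upstream. In the P5 pooled list 1 of 15 (6.67%, against 1.27%) was in a promoter, that of Olfr1037, 701 bp upstream with a score of 2.07 (27 tags), also called in P5 replicate 3 with 23 tags.

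A further 7 genes had a P3 pooled peak within 2 kb of the TSS but outside the promoter class. Olfr31 (2.81), Olfr1208 (2.73), Olfr1252 (2.56), Olfr66 (2.48) and Olfr765 (2.23) had it upstream, and Olfr1406 (2.56) and Olfr907 (2.32) had it downstream at their transcript end. The peaks of Olfr31 and Olfr1252 overlapped peaks of P3 replicate 4 with scores of 4.35 and 3.08. Among single libraries P3 replicate 4 had 12 promoter peaks of 112 (10.7%, against 0.806% of the others), P3 replicate 5 had 0 of 18 (against 0.540%) and P5 replicate 3 had 2 of 22 (9.09%, against 0.685%). The part of the close spacing of Olfr genes in these shares was not tested. The one closest to a TSS, whose sequence is printed above, was 97 bp upstream of Olfr837 in P3 replicate 4, with 21 tags.

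Olfr peaks lay nearer to their TSS than the other peaks of the same list. The median distance was 4.48 kb against 71.9 kb in P3 replicate 4, 6.95 kb against 72.7 kb in P3 replicate 5 and 10.5 kb against 69.0 kb in P5 replicate 3. It was 7.14 kb against 79.7 kb and 10.3 kb against 77.7 kb in the P3 and P5 pooled lists. The rule takes the nearest gene, so this distance cannot be told apart from the close spacing of Olfr genes given above. The share of Olfr peaks upstream of the TSS was above that of the others in each of the 3 libraries, by little in P5 replicate 3. It was 56.2%, 61.1% and 45.5% against 43.6%, 43.1% and 44.0% in P3 replicates 4 and 5 and P5 replicate 3.

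**Figure D4:**
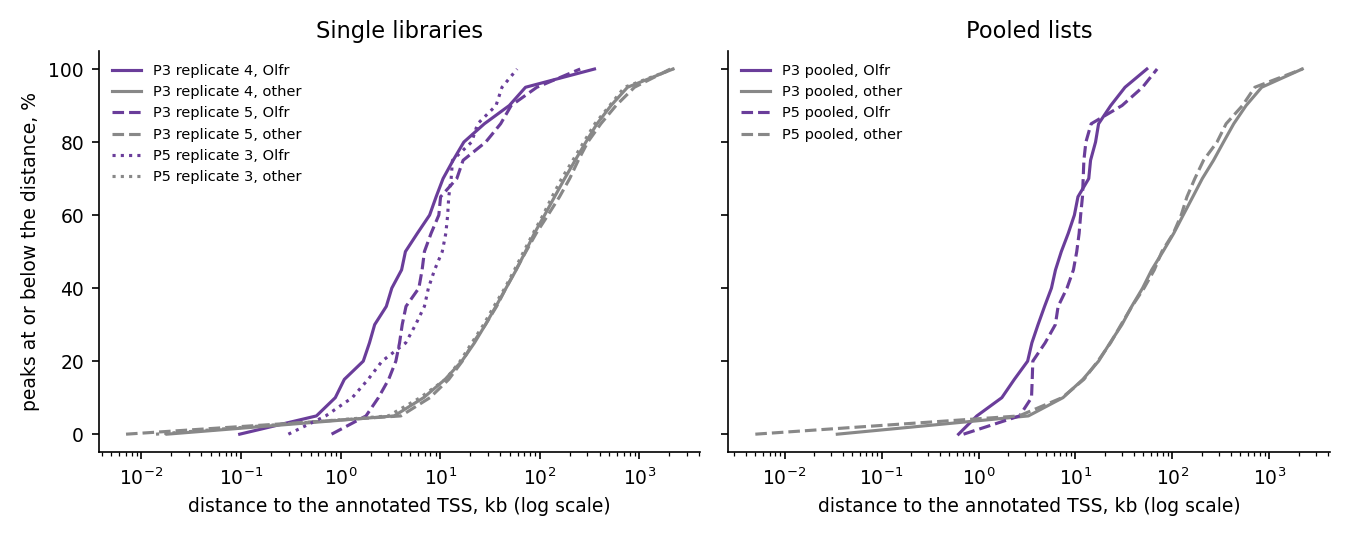
Cumulative percentage of peaks (every 5 percentage points) by distance to the annotated TSS in kb, on a log axis, for Olfr peaks (purple) and the other peaks (grey). The purple lines reach 50% at 4.48 to 10.5 kb and the grey lines at 69.0 to 79.7 kb. P5 replicate 2 has no Olfr peak.

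LINEs held a larger share of Olfr peaks than of other peaks in each of the 3 libraries that had any. The share was 33.0% (37 of 112) against 14.9% in P3 replicate 4, 27.8% (5 of 18) against 14.9% in P3 replicate 5 and 27.3% (6 of 22) against 16.3% in P5 replicate 3. It was 35.9% (28 of 78) against 19.7% in the P3 pooled list and 3 of 15 peaks against 18.3% in the P5 pooled list. LTR elements held 8.93% against 8.55%, 11.1% against 8.32% and 27.3% against 11.3% in the same 3 libraries. The part that the higher repeat content of the clusters has in these shares was not tested. Most Olfr peaks lay in sequence found once in the genome, 233 of 245 (95.1%) by the median copy number of their 31-base words. The share was below that of the other peaks in the 3 libraries, 96.4% against 98.7%, 94.4% against 97.8% and 95.5% against 98.5%. It was 92.3% against 97.6% in the P3 pooled list and 100% against 96.2% in the P5 pooled list.

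The share of Olfr peaks with an E-box was within counting error of that of the other peaks. CACGTG was in 0 of the 245, while the other peaks held it in 1.09%, 1.62% and 1.29% of cases in P3 replicates 4 and 5 and P5 replicate 3, so a share that low gives few or none in lists of this size. The flexible E-box was in 22.3% (25 of 112, interval 15 to 31.2) of Olfr peaks against 29.2% of others in P3 replicate 4, 16.7% (3 of 18, 3.58 to 41.4) against 35.2% in P3 replicate 5 and 36.4% (8 of 22, 17.2 to 59.3) against 36.6% in P5 replicate 3. It was 32.1% (25 of 78, 21.9 to 43.6) against 33.1% in the P3 pooled list and 40.0% (6 of 15, 16.3 to 67.7) against 31.4% in the P5 pooled list. The other peaks' share fell inside the interval in all 5 lists. Median GC content was 33.1% against 37.2%, 34.2% against 35.7% and 41.5% against 39.2% in the 3 libraries, with no common direction.

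**Figure D5:**
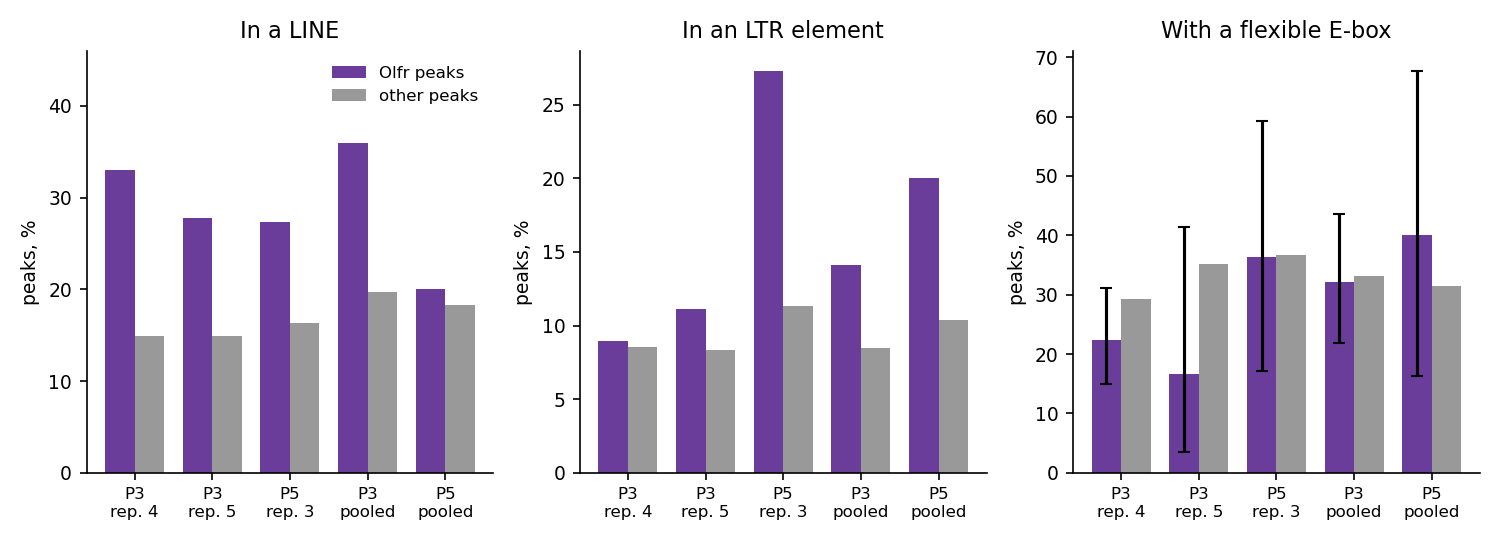
Percentage of peaks in a LINE, in an LTR element and with a flexible E-box, for Olfr peaks (purple) and the other peaks (grey) of each list that had an Olfr peak. Error bars on the E-box panel are 95% Clopper-Pearson intervals. The LINE bars of Olfr peaks are the higher of each pair and each E-box interval covers the grey bar.

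These differences were compared over the 3 libraries with Olfr peaks for 8 features (median distance, share within 10 kb, upstream, intergenic, in LINEs, in LTR elements, with the flexible E-box, and GC content). With 3 libraries the exact two-sided sign-flip permutation test cannot go below p = 0.250. Of the 8 permutation tests, 7 reached that value because the sign was the same in all 3 libraries, with a Benjamini-Hochberg adjusted p of 0.286, and GC content gave p = 0.750. None can pass the 0.05 threshold in this design. The tests of median distance and of the share within 10 kb cannot be told apart from the nearest-gene rule and the close spacing of Olfr genes. They are therefore not results about these peaks, and the part of that spacing in the intergenic share was not tested. The mean difference was 14 percentage points (SD 3.68, n = 3) for LINEs and -8.56 (SD 9.26, n = 3) for the flexible E-box.

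The promoters of these genes were also read for the motif, independently of where the peaks lay. RefSeq (GRCm38.p6) gave a promoter of 300 bases, of which 50 follow the start, for 164 of the 193 genes. CACGTG was in 3 of them (1.83%), against 2.17% for the other Olfr genes and 7.15% for all promoters, and the 3 were Olfr1402, Olfr20 and Olfr1532-ps1. The flexible form was in 47.6% against 49.5% and 40.4%. None of the peaks of these 3 genes was in the promoter. The window follows the annotated start, and whether transcription of an Olfr gene begins there was not checked. The difference from all promoters was not tested.

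Genes that act with the receptors in the nose were taken from lists of other pathway members. Of 18 genes of olfactory signalling, 8 (44.4%, against 20.3% of all curated genes) had a peak in P3 replicate 4. The number was 0 in P3 replicate 5 (against 3.17%), 0 in P5 replicate 2 (against 0.745%) and 1 in P5 replicate 3 (5.56%, against 4.37%). It was 3 (16.7%, against 9.86%) in the P3 pooled list and 0 in the P5 pooled list (against 1.74%). The P3 genes included Omp, the olfactory marker protein, with a peak 9.0 kb downstream of its TSS in P3 replicate 4 (4.17, 23 tags) and at the same place in the P3 pooled list (2.40, 29 tags), inside an intron of another transcript. The genes of P3 replicate 4 also included Rtp1 and Rtp2, which carry receptors to the cell surface, with peaks 44.0 kb downstream and 24.5 kb upstream. Ano2, a chloride channel of the cilia, had one 77.2 kb downstream (14 tags). Pde1c, a phosphodiesterase, had them 131 kb downstream and 153 kb upstream. Adrbk2 and Reep1 had theirs 8.42 and 29.7 kb upstream. The shares of the 18 genes were not tested. The P5 gene was Stoml3, a protein of the sensory cilia, with a peak 8.52 kb downstream of its TSS (3.66, 25 tags). The Stoml3 peaks of P3 replicate 4 were elsewhere, 59.4 and 65.2 kb downstream, inside introns of another transcript. Gnal, Adcy3, Cnga2 and Cngb1, which code for the G protein, the cyclase and channel subunits of the odour response, had none in any list.

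Of 14 genes of receptor choice, 2 had a peak in some list, against 26.7% of all curated genes. Lbr, the lamin B receptor, a nuclear envelope protein that mature olfactory neurons lack, had one 70.5 kb downstream in P3 replicate 4 (3.26, 18 tags) and the P3 pooled list (2.81, 34 tags), in a LINE. Ldb1, an adaptor of the receptor enhancers, had one 13.4 kb downstream in P3 replicate 4 (3.44, 19 tags). Lhx2 and the Ebf genes, the transcription factors of receptor expression, had none.

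Other clustered families had shares of genes with a peak on either side of that of the Olfr genes. In P3 replicate 4 the share was 8.26% of 230 Vmn1r genes and 19.7% of 127 Vmn2r genes, both receptors of the vomeronasal organ, against 8.80% for Olfr. It was 16.9% of 403 Zfp genes, a clustered family of zinc finger genes that are not receptors, and 2 of 15 Taar genes, the trace amine receptors. In the P3 pooled list the shares were 9.13%, 16.5% and 10.7% for Vmn1r, Vmn2r and Zfp, against 6.76% for Olfr. In P5 replicate 3 they were 0.435%, 3.15% and 3.97%, against 1.96% for Olfr. The order of the families was not tested.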

How the data were processed

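Bmal1 chromatin immunoprecipitation libraries of whole retina were analysed from the peak lists that the authors deposited. The labels name bcl2fastq, Trim Galore, Bowtie and MACS2 without versions, and the study's methods name the mouse build GRCm38 (mm10). Peak thresholds were not given in the sources used here. A deposited list gives, per peak, its position, a peak score scaled by the authors to tags per 10 M, the nearest TSS and its distance, and repeat and gene annotation. Pooled lists were called on the 2 libraries of an age. A further control list was not used here.

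Whole tags were recovered from scores under 10, which were multiples of 1 tag within 0.0052, giving depths of 55.2, 65.7, 62.0 and 68.3 M tags (P3 replicates 4 and 5, P5 replicates 2 and 3) and 120.9 and 130.3 M pooled. The lowest narrow peak held 12 tags in P3 replicate 4 and 17 in the other libraries. The distance to the TSS recomputed from RefSeq agreed within 2 bp for 236 of 244 Olfr peaks. Expected peaks in clusters were the list's peaks times the clusters' share of unambiguous bases, and 0.5 was added to observed and expected before a log2 ratio. Word copies and clustering were tested on simulated data. Shares have 95% Clopper-Pearson intervals, and libraries were compared by exact permutation. Python 3.11.15, scipy 1.17.1, pandas 2.3.3 and numba 0.67.0 were used.

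The genes named are those with a peak in 2 or more libraries or both pooled lists, those of the 5 highest-scoring Olfr peaks of each list (ties in chromosome order, with genes tied at the fifth place also given), those with a pooled peak in the promoter, an exon or within 2 kb of the TSS, and those with CACGTG in a pooled peak. The sequence of 1 high-scoring peak is not reported here. Other genes were chosen after their values were seen. The members, gene lists and clusters were chosen with earlier results of these data known.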

Additional observations from a re-analysis of the deposited data

How the results depend on the processing

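Broad lists gave 334 Olfr genes at P3 and 86 at P5, and 213 in more than 1 library, against 76, 14 and 7 in the narrow lists. They turned the mean log2 density ratio to 0.58 from -0.14. The share of Olfr genes with a broad peak was above that of all genes at P3. It was 31.7% against 29.8% in replicate 4, 19.2% against 16.4% in replicate 5 and 29.4% against 22.9% pooled. At P5 it was below, 9.96% against 13.5% in replicate 2, 15.5% against 16.7% in replicate 3 and 7.64% against 9.53% pooled. These shares were not tested. In the upper 50% of scores the Olfr genes at P3, at P5 and in more than 1 library numbered 19, 4 and 2, and the P3 share of peaks was 1.18%. Within 50 kb of the TSS the shares were 5.09% at P3 and 6.97% at P5, since fewer other peaks are that close. Requiring overlapping peaks, or centers within 1 kb, left 0 genes in more than 1 library, and requiring CACGTG left 0 at both ages. Leaving out a library and using the remaining library's list gave 17 to 99 genes and 1.17% to 1.91% at P3, and 0 to 22 genes and 0% to 1.65% at P5. The P3 minus P5 difference then ran from -0.106 to 1.54 percentage points, turning without P5 replicate 2, and the mean log2 density ratio from -0.34 to 0.18, also turning without P5 replicate 2. Of the 48 alternatives, 26 kept the direction or, for counts and shares, stayed within 1.5 times the count or within the interval of the share. The cause of these shifts was not tested. No paired analysis was possible because the ages share no replicate number. The number of peaks limits the precision, and with 0 of 200 peaks in P5 replicate 2 the Olfr share there has a 95% interval of 0 to 1.83%.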
